A study of Helianthus annuus with 6 samples.

Results

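The most abundant transcripts of the sunflower petiole were examined as a group of 100 loci, the 100 with the highest mean expression among 70842 loci measured by RNA sequencing. The mean was taken over 6 libraries, and the values that chose the loci are therefore given as a description. Of the 100 loci, 93 were RefSeq genes and 7 were loci listed under newGene identifiers instead of RefSeq ones. Of 182 organelle genes in the RefSeq annotation used here, 0 were among the measured identifiers. Under those identifiers, organelle transcripts could enter neither the group nor the summed FPKM. The libraries came from petioles of cultivated sunflower (Helianthus annuus), 3 from the inbred line 19G and 3 from the inbred line 20G. Line 19G is the leaf-flat type, whose petioles stand at a large inclination angle. Line 20G is the leaf-compact type, with a small angle. The labels name no treatment and no age. Each leaf type is represented by a single inbred line, so leaf type and line cannot be told apart. The labels do not state if libraries of the same line were made from different plants, so the p-values reflect differences among libraries that could be of technical origin.

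A petiole is the stalk that joins the leaf blade to the stem. It holds vascular bundles within a ground tissue that is usually green, and unequal growth of its upper and lower sides can change the angle at which the leaf is held. In green plant organs the messenger RNAs present in most copies commonly encode proteins of photosynthesis, of translation, of water transport and of the cell wall, as well as small metal-binding and lipid-transfer proteins. The files and the gene table used here pair these loci with identifiers and not with products, so which of these classes the 100 loci belong to was not analysed, and the petiole label was not checked against tissue markers. The labels call the library source single-cell, but each file gives a single value per locus with no cells, and the libraries were treated as bulk tissue, in which fewer cells of a type and less RNA per cell cannot be told apart. The unit is FPKM, sequenced fragments divided by the length of the transcript and by the total that mapped in that library, so levels of different loci can be set beside each other.

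Among the 100 loci expression was steeply graded. The highest mean was 16408 FPKM, in LOC110873772, and the lowest was 534.99, in LOC110930503, a ratio of 30.7. A mean of at least 1000 FPKM was reached by 27 loci. Across the 28292 loci that were tested for a difference between the lines, the median of the mean was 7.30 FPKM. No library listed any of the 100 at 0, and the lowest single value was 45.7 FPKM. At the edge of the group the values were close: LOC110868758, newGene_4197 and LOC110930503 at ranks 98 to 100 had means of 537.8, 535.5 and 535.0 FPKM, and the next 3 loci, LOC110915405, LOC110885081 and LOC110937282, which are not members, had means of 534.1, 533.5 and 532.1.

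**Figure D1:**
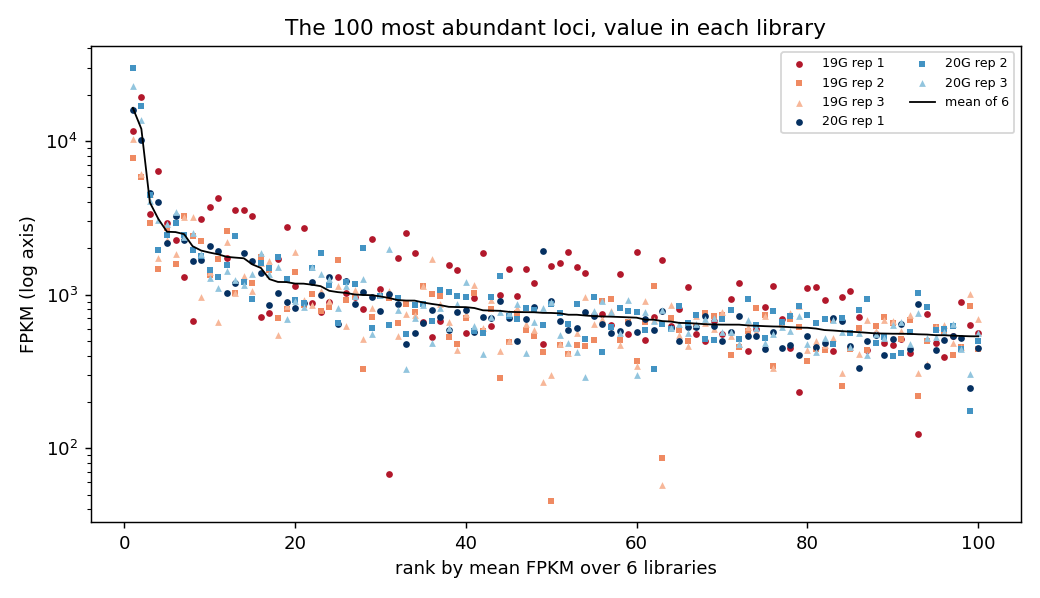
FPKM of the 100 loci (y axis, log scale) against their rank by mean FPKM over 6 libraries (x axis). Each point is a library, red to orange for 19G and blue for 20G, and the line is the mean of the 6; the mean falls from 16408 FPKM at rank 1 to 534.99 at rank 100, and many of the highest points belong to 19G replicate 1.

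A pair of genes stood above all others. LOC110873772 was listed at 11651, 7789 and 10351 FPKM in 19G replicates 1 to 3 and at 15808, 29984 and 22864 in 20G. LOC110891322 was listed at 19196, 5838 and 6118 FPKM in 19G and at 10190, 16767 and 13678 in 20G. LOC110873772 was the highest locus in 5 libraries, while LOC110891322 was the highest in 19G replicate 1. The 3 values of LOC110873772 in 20G lay above the 3 in 19G, whereas the lines overlapped for LOC110891322. The mean of LOC110873772 was 4.13 times that of LOC110872247, the gene at rank 3.

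Below this pair, 3 loci of the first 10 stayed within 2-fold among the libraries of each line. LOC110872247 was listed at 3324, 2913 and 4531 FPKM in 19G and at 4589, 4435 and 4045 in 20G. newGene_20210, the most abundant of the newGene loci, was listed at 2931, 2701 and 2272 FPKM in 19G and at 2165, 2445 and 2865 in 20G. In both, the lines overlapped. LOC110872272 was listed at 2263, 1579 and 1831 FPKM in 19G and at 3236, 2926 and 3469 in 20G, with no overlap between the lines.

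The remaining 5 of the first 10 differed over 2-fold among the libraries of 19G. LOC110899840 was listed at 6375, 1458 and 1724 FPKM in 19G replicates 1 to 3, against 4015, 1941 and 3064 in 20G. LOC110889450 was listed at 3707, 1341 and 1400 FPKM in 19G, against 2071, 1452 and 1286 in 20G. Both were thus highest in 19G replicate 1. LOC110912864 was low in the same library, at 1304 FPKM against 3269 and 3191 in the other libraries of 19G and 2281, 2432 and 2362 in 20G. LOC110895460 was also low there, at 677.1 FPKM against 2413 and 3178 in the other libraries of 19G and 1659, 1955 and 2506 in 20G. It fell out of the library's own first 100 in 19G replicate 1, while its rank was between 7 and 9 in 19G replicate 2, 20G replicate 2 and 20G replicate 3. newGene_6327 differed in another library, with 3099, 2247 and 969.5 FPKM in 19G replicates 1 to 3 and 1669, 1786 and 1832 in 20G.

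Together the 100 loci, 0.14% of all loci, held between 15.1% and 22.5% of the FPKM summed over a library. In 19G they held 22.5%, 15.1% and 15.4% of it, a mean of 17.7% ± 4.15 (SD, n = 3). In 20G they held 17.2%, 20.2% and 18.9%, a mean of 18.8% ± 1.47 (SD, n = 3). The lines overlapped in this share, and no test was made of it because the loci were chosen for their level. The next 400 loci by mean held 16.0% to 18.4% of the sum, the highest share again being that of 19G replicate 1.

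Within the group, the upper and the lower ranks moved differently between libraries. The 2 genes at the top held 4.50%, 2.14% and 2.5% of summed FPKM in 19G and 3.94%, 6.66% and 5.48% in 20G. Ranks 11 to 100 held 14.5% in 19G replicate 1 and at most 10.8% in each of the other 5 libraries. The larger total of 20G replicates 2 and 3 over 19G replicates 2 and 3 thus lay mostly in the first 10 ranks, and that of 19G replicate 1 mostly in ranks 11 to 100. In 20G replicate 2 the 12 highest members were enough to hold 50% of the group's FPKM, while 22 were needed in 19G replicate 2.

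**Figure D2:**
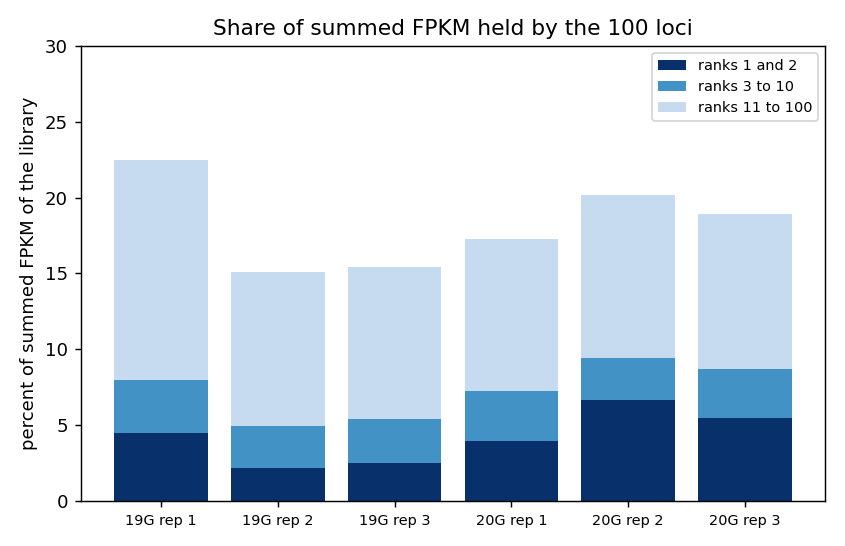
Percent of the summed FPKM of each library (y axis) held by ranks 1 and 2, ranks 3 to 10 and ranks 11 to 100 (stacked bars), for 3 libraries of 19G and 3 of 20G. The total runs from 15.1% in 19G replicate 2 to 22.5% in 19G replicate 1, where ranks 11 to 100 hold 14.5%.

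Membership was broadly shared between libraries, though not complete in any. Among the 100 highest loci of the library itself were 67 members in 19G replicate 1, 76 in 19G replicate 2, 76 in 19G replicate 3, and 80, 80 and 79 in the 20G libraries. Counted by locus, 33 members were among the 100 highest of all 6 libraries, 24 in 5 libraries, 22 in 4, 11 in 3, 9 in 2 and 1 in 1. The 100 highest by the mean of 19G and the 100 highest by the mean of 20G shared 73 loci. A member fell furthest in rank in 19G replicate 2, where newGene_6328 stood at 45.7 FPKM and rank 2634.

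The members were compared between the lines with limma, a linear model fitted to log2(FPKM + 1) over all 28292 loci that had at least 1 FPKM in 3 or more libraries. All 100 members passed that filter. Calls required an adjusted p (Benjamini-Hochberg, over all these loci) below 0.05 together with a change of 2-fold or more, that is a log2 difference of 1 in either direction. Differences are given as 20G minus 19G. By this rule 2 of the 100 members were called, LOC110915890 with more and newGene_4197 with less transcript in 20G. Over all tested loci 17.1% were called (8.44% with more and 8.7% with less transcript in 20G), and among the next 400 loci by mean the count was 29, or 7.25%. The rule that chose the members used the mean of both lines and not their difference, but a locus low in a whole line needs a very high level in the other to enter.

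LOC110915890, at rank 93, was the member called higher in 20G. It was listed at 869.3, 1031 and 755.3 FPKM in 20G and at 123.8, 220.5 and 309.8 in 19G. Every 20G library lay above every 19G library, and 19G replicate 1 was the lowest of the 6. The log2 difference came to 2.10 (SE 0.36, limma adjusted p = 0.0050). Without 19G replicate 1 the difference was 1.74 (limma adjusted p = 0.0038).

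newGene_4197, at rank 99, was the member called lower in 20G. It was listed at 245.1, 173.8 and 304.8 FPKM in 20G and at 635.4, 848.0 and 1006 in 19G, again with no overlap between the lines. The log2 difference came to -1.79 (SE 0.30, limma adjusted p = 0.0044). Both called members lie close to the edge of the group. When the 100 loci were chosen by the mean of log2(FPKM + 1), which weighs low values more, neither belonged to them and 0 of those 100 loci were called by limma.

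**Figure D3:**
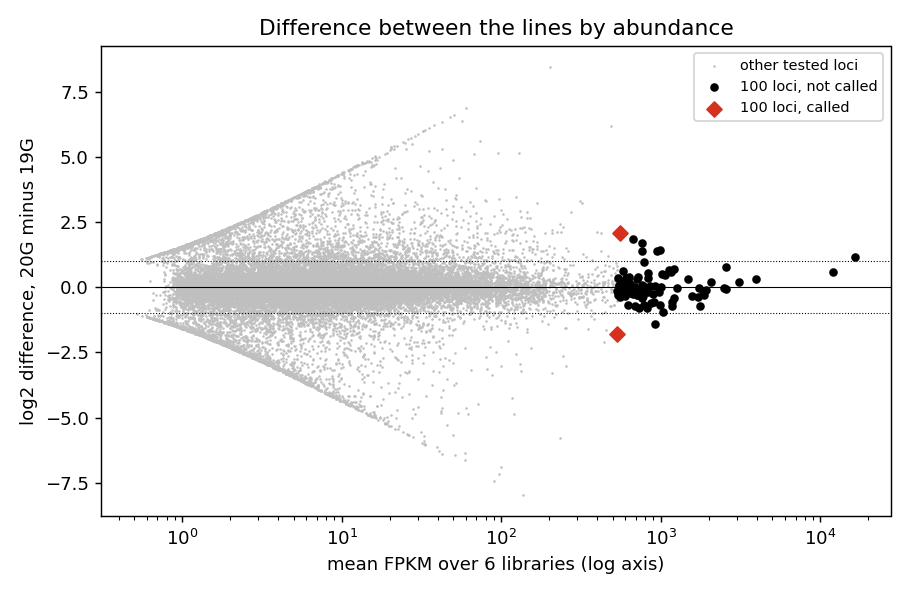
Log2 difference on the log2(FPKM + 1) scale, 20G minus 19G (y axis), against mean FPKM over 6 libraries (x axis, log scale) for the tested loci. Grey points are other loci, black points the 98 members not called and red diamonds the 2 called members, LOC110915890 at 2.10 and newGene_4197 at -1.79; dotted lines mark a difference of 1 in size.

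The other 98 members were not called, which does not show that they were equal in the lines. The median log2 difference of the 100 was -0.07, beside 0.02 over all tested loci, with 44 members above 0 and 56 below. The sign of the members' median is not stable: it was 0.09 without 19G replicate 1 (-0.07 over all tested loci), 0.05 with quantile normalization and 0.01 with limma sample weights. A difference of at least 1 in size was shown by 9 members, against 20.2% of all tested loci and 52 of the next 400 loci. The standard error of the difference had a median of 0.37 among members, 0.29 in the next 400 loci and 0.23 over all tested loci, so the interval of a member was wider than that of a typical locus. For 33 members the 95% interval of the log2 difference lay within 1 of 0. The 3 values of one line lay wholly above those of the other in 18 members, 9 in each direction, where 34.4% of all tested loci did so (18% higher and 16.4% lower in 20G).

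Besides the called members, LOC110936586 passed the adjusted p by limma without reaching a difference of 1. It brought the members under that p, at any size of difference, to 3 of 100, where 20.6% of all tested loci were. It was listed at 945.4, 1024 and 1159 FPKM in 19G and at 569.5, 582.1 and 625.1 in 20G, which is a log2 change of -0.81 (SE 0.23, limma adjusted p = 0.048). LOC110865255 and LOC110937837, named here after their values were seen, came close. LOC110865255 was listed at 1300, 1675 and 1133 FPKM in 19G and at 641.6, 654.0 and 820.9 in 20G, which is a log2 change of -0.95 (limma adjusted p = 0.053). LOC110937837 was listed at 808.0, 326.2 and 513.9 FPKM in 19G and at 1034, 2020 and 1263 in 20G, which is a log2 change of 1.43 (limma adjusted p = 0.055). In each of the 3 genes the lines did not overlap. Among the 10 most abundant loci, adjusted p by limma ranged from 0.16 to 0.99. For LOC110872272, whose lines did not overlap, the log2 difference was 0.78 (95% interval 0.0060 to 1.55) at a limma adjusted p of 0.16.

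The steadiest members varied little in any library. LOC110885766 had the smallest SD of log2(FPKM + 1) over the 6 libraries, 0.12, and was listed at 556.6, 626.0 and 583.8 FPKM in 19G and at 547.5, 482.4 and 557.4 in 20G. LOC110941541 (SD 0.14) was listed at 965.1, 961.6 and 1067 FPKM in 19G and at 874.0, 1164 and 973.3 in 20G. LOC110911678 (SD 0.15) was listed at 556.8, 617.6 and 722.8 FPKM in 19G and at 613.3, 736.3 and 640.8 in 20G. The lines of these 3 genes overlapped, and their highest value was at most 1.33 times their lowest. LOC118479416 (SD 0.16) and newGene_20210 (SD 0.18) came next. The 95% intervals of the log2 difference were -0.60 to 0.60 for LOC110941541 and -0.66 to 0.35 for LOC110885766, so these libraries allow differences up to those bounds. Over the 100 members the ratio of highest to lowest value had a median of 2.42, beside 2.24 in the next 400 loci. It was under 1.5 in 8 members, from 1.5 to 2 in 27, from 2 to 3 in 27, from 3 to 5 in 28, from 5 to 10 in 7 and above 10 in 3.

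Within 19G, most members lay close together in replicates 2 and 3. Between 19G replicates 2 and 3, 88 of the 100 members lay within 1.5-fold and 4 differed over 2-fold. With replicate 1 included, 34 members lay within 1.5-fold in 19G and 49 differed over 2-fold. A ratio over 3 libraries cannot be smaller than over 2 of them, and other pairs were not compared. Of the next 400 loci, 338 lay within 1.5-fold between 19G replicates 2 and 3 and 165 over all 3. In 20G, 54 of the 100 members lay within 1.5-fold over the 3 libraries and 13 differed over 2-fold. Replicate 1 of 19G held the highest value of the 6 libraries in 43 members and the lowest in 20. It was the highest library at 31% of the next 400 loci by mean. Over all tested loci it was the highest library at 11.3% and the lowest at 39.1%. The members' counts are a description, since a high value in that library favours membership.

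In 19G replicate 1, 36 of the 100 members lay over 2-fold above the mean of the other libraries of 19G and 8 lay over 2-fold below it. Over all tested loci 9.24% lay above and 17.2% below, and among the next 400 loci by mean the counts were 78 and 41. In 19G replicates 2 and 3 the members over 2-fold above the others of the line numbered 0 and 3, where 6.23% and 7.89% of all tested loci did so. In 20G replicates 1 to 3 the number of members over 2-fold above the others of the line was 1, 1 and 1, where 6.86%, 7.71% and 5.7% of all tested loci were. A value in 19G replicate 1 adds to the mean that chose the members, and so can bring in loci that are high there. When the 100 loci were chosen on the other 5 libraries, a choice made after the data had been seen, 29 lay over 2-fold above in 19G replicate 1 and 12 below. The median ratio of 19G replicate 1 to the other libraries of its line was 1.23 for the 100 members and 0.98 for the 100 loci chosen without it. This median also fell for each other library left out of its own choice, as in 19G replicate 2 from 0.88 to 0.76. A choice without a library favours loci high in the others of its line, so the fall is partly built in. The corresponding counts above, for each other library left out of its own choice, were 0 and 3 in 19G replicates 2 and 3 and 0, 0 and 1 in 20G.

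**Figure D4:**
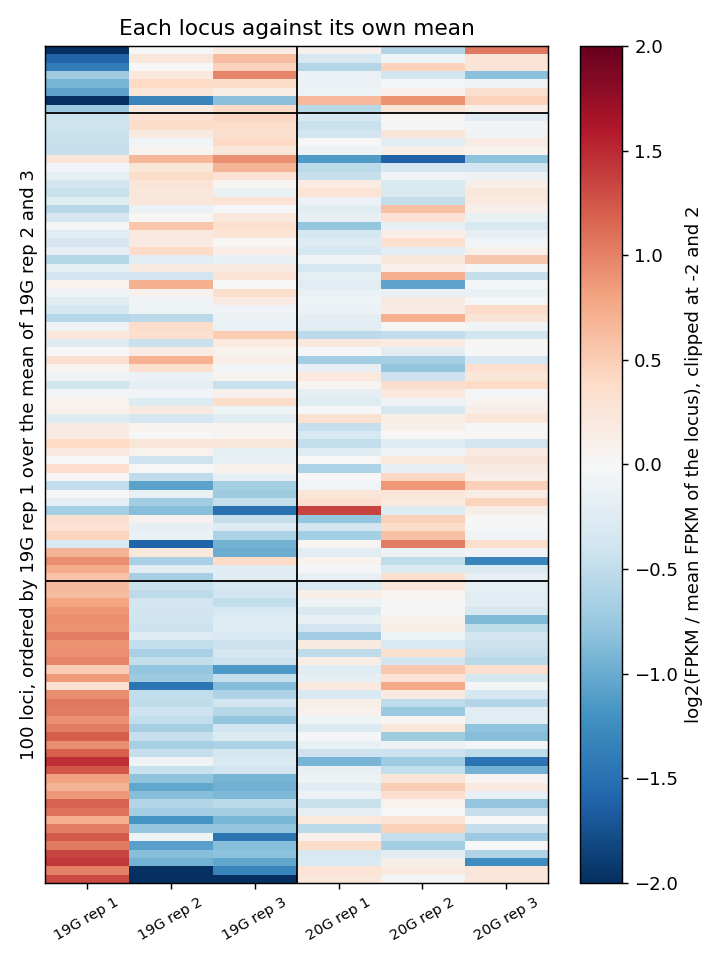
Log2 of FPKM over the locus's own mean of 6 libraries (colour, clipped at -2 and 2) for the 100 loci (rows) in 3 libraries of 19G and 3 of 20G (columns), ordered by 19G replicate 1 over the mean of replicates 2 and 3. Horizontal lines set off the 8 loci over 2-fold below (top) and the 36 over 2-fold above (bottom) in 19G replicate 1.

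The 36 members that were high in 19G replicate 1, picked by that value, lay 2.04-fold to 23.2-fold above the other libraries of the line, with a median of 2.95-fold. Their share of summed FPKM was 13.1% in that library, against 4.42% and 4.31% in 19G replicates 2 and 3. In 20G they held 6.52%, 7.10% and 6.12%, between the values of the 19G libraries. All 3 libraries of 20G lay below 19G replicate 1 in 34 of the 36, while the mean of 20G lay above both other 19G libraries in 29. The 56 members within 2-fold in 19G replicate 1 took 8.76%, 8.86% and 9.06% of the sum in 19G and 9.32%, 11.6% and 10.98% in 20G. Both sets were split by their value in 19G replicate 1, so these shares describe the split and test nothing. Absolute depth is unknown. A weak estimate of relative depth, resting on 1.91% of the ratios between very small values, put the highest library at 1.13 times the lowest, and the part of depth in these values was not tested.

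Of the 5 members in which 19G replicate 1 lay furthest from its line, 4 were high there. LOC110899837 was listed at 1671, 86.4 and 57.9 FPKM in 19G replicates 1 to 3 and at 783.3, 645.8 and 788.6 in 20G. newGene_6328 was listed at 1528, 45.7 and 299.4 FPKM in 19G and at 915.0, 871.5 and 897.2 in 20G. In both, the 3 libraries of 20G lay between 19G replicate 1 and the other 19G libraries. With all libraries their log2 differences were 1.85 with a 95% interval of -0.91 to 4.61 for LOC110899837 and 1.69 with an interval of -0.95 to 4.33 for newGene_6328, and neither was called. Without 19G replicate 1 the differences were 3.36 (limma adjusted p = 0.00018) for LOC110899837 and 2.92 (limma adjusted p = 0.035) for newGene_6328, and both were called.

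LOC110872088 and LOC110937284 showed a smaller excess. LOC110872088 was listed at 1888, 367.7 and 345.1 FPKM in 19G and at 574.9, 769.6 and 300.3 in 20G. LOC110937284 was listed at 1892, 408.9 and 419.1 FPKM in 19G and at 591.2, 640.7 and 485.0 in 20G. Their log2 differences changed sign from -0.28 and -0.27 with all libraries to 0.52 and 0.46 without 19G replicate 1. The fifth gene, LOC110890936, went the other way, at 67.9 FPKM in 19G replicate 1 against 957.0 and 1051 in the other libraries of 19G and 1013, 632.9 and 1980 in 20G. It held rank 1638 in 19G replicate 1 and rank 9 in 20G replicate 3.

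Leaving out 19G replicate 1 raised the number of called members from 2 to 8 of 100, 7 higher and 1 lower in 20G, where 20.1% of all tested loci were called without it (9.34% higher and 10.8% lower). LOC110915890 and newGene_4197 were among the 8. Of the other 6, named after their values were seen, LOC110899837, newGene_6328, LOC110873544, LOC110890494 and LOC110864611 belonged to the 36 loci high in 19G replicate 1, and LOC110937837 did not. LOC110873544 was listed at 1703, 704.6 and 543.7 FPKM in 19G and at 1018, 1762 and 1520 in 20G, and its log2 difference was 1.17 without 19G replicate 1 (limma adjusted p = 0.041). LOC110890494 stood at 986.9, 284.8 and 431.2 FPKM in 19G and at 901.7, 1330 and 768.4 in 20G, with a log2 difference of 1.47 on the same terms (limma adjusted p = 0.021). LOC110864611 stood at 957.4, 254.3 and 306.8 FPKM in 19G and at 671.0, 705.3 and 574.4 in 20G, with a log2 difference of 1.21 (limma adjusted p = 0.0069). In these 3 genes the value of 19G replicate 1 lay within or above the range of 20G. The calls thus rest on leaving that library out. Of the next 400 loci by mean, 58 were called without it.

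**Figure D5:**
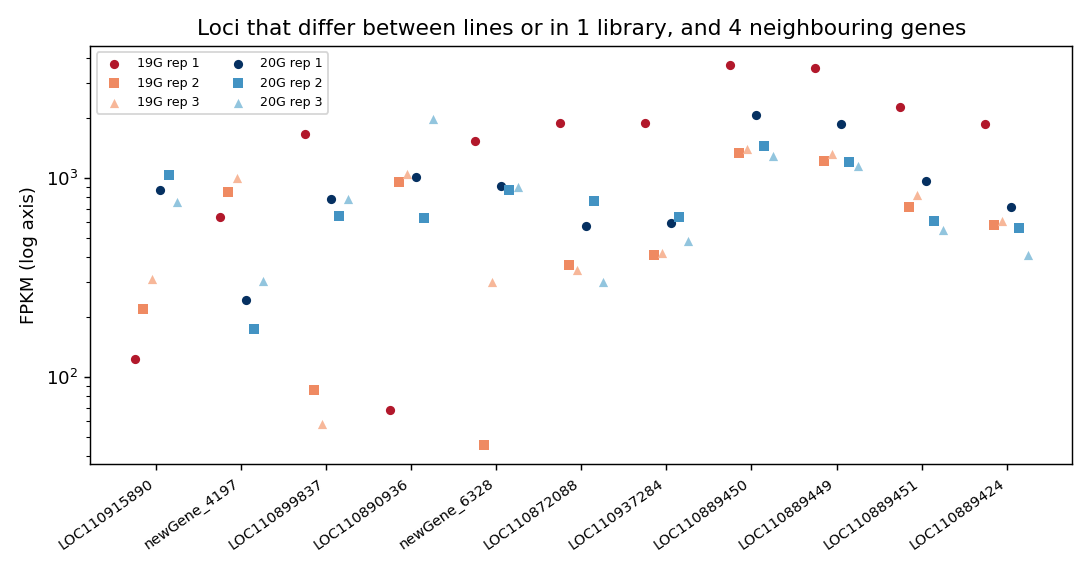
FPKM (y axis, log scale) in 3 libraries of 19G (red to orange) and 3 of 20G (blue) for the 2 called members, the 5 members in which 19G replicate 1 lay furthest from its line, and 4 neighbouring genes. LOC110915890 and newGene_4197 show no overlap of the lines, and 19G replicate 1 is the highest point in LOC110899837 (1671 FPKM) and the lowest in LOC110890936 (67.9 FPKM).

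Some members lay beside each other in the RefSeq gene order of assembly HanXRQr2.0-SUNRISE, in which all 93 RefSeq members were placed. RefSeq members at most 5 genes apart formed 3 groups with 9 genes in all, and the other 84 had no RefSeq member that near. The newGene loci have no place in this order. Of one group of 4 genes, consecutive in this order, LOC110889450 has been given above. LOC110889449 was listed at 3568, 1213 and 1314 FPKM in 19G and at 1877, 1210 and 1153 in 20G. LOC110889451 was listed at 2282, 716.9 and 817.5 FPKM in 19G and at 967.5, 606.2 and 551.3 in 20G. LOC110889424 was listed at 1864, 580.5 and 609.2 FPKM in 19G and at 713.6, 562.7 and 411.5 in 20G. All 4 were highest in 19G replicate 1. The ratio of LOC110889449 to LOC110889450 stayed between 0.83 and 0.96 over the 6 libraries, with overlap between the lines. Some other ratios were higher in every 20G library than in any 19G library. LOC110889450 over LOC110889424 was at most 2.31 in 19G and at least 2.58 in 20G. LOC110889450 over LOC110889451 reached at most 1.87 in 19G, while 2.14 was the lowest 20G value. For LOC110889449 over LOC110889451 these values were 1.69 and 1.94. The lines overlapped in the remaining pairs. The ratios without overlap share genes, and the lines did not overlap in 34.4% of all tested loci taken singly. How often ratios of other gene pairs do so was not computed. Among the 6 pairs of these genes the largest change of a ratio between libraries was 1.57-fold.

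In the other groups the neighbours were less alike or less variable. LOC110899840, LOC110899837 and LOC110899830 lay 3 and 5 genes apart, and all were highest in 19G replicate 1, LOC110899830 at 3239 FPKM there against 1183 and 1059 in the other 19G libraries and 1660, 935.9 and 1353 in 20G. The ratio of LOC110899840 to LOC110899837 ran from 3.01 in 20G replicate 2 to 29.8 in 19G replicate 3, so they did not keep a common proportion. LOC110899556 and LOC110899555, 2 genes apart, kept a ratio of 0.60 to 0.73. LOC110899555 was listed at 667.0, 1141 and 1137 FPKM in 19G and at 651.3, 874.8 and 856.5 in 20G, and LOC110899556 at 487.6, 719.8 and 679.3 in 19G and at 405.4, 532.5 and 521.7 in 20G. No sequence was compared to see if these neighbours are gene copies, and reads shared between copies would leave their single values uncertain.

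The 7 newGene loci made up 7% of the group, against 18.1% of all tested loci and 4.75% of the next 400 loci. They included newGene_20210, with one of the smallest spreads of the 100, and newGene_6328 with the widest ratio of highest to lowest value, 33.5. newGene_20211 was listed at 4257, 1700 and 663.1 FPKM in 19G and at 1932, 1308 and 1109 in 20G. newGene_14925 was listed at 475.5, 421.7 and 269.9 FPKM in 19G and at 1935, 637.7 and 823.6 in 20G, with no overlap between the lines and a log2 difference of 1.41 (limma adjusted p = 0.078). newGene_11425 was listed at 434.2, 433.8 and 679.6 FPKM in 19G and at 496.3, 935.8 and 406.2 in 20G, where the lines overlapped. In 5 of the 7 loci the libraries of a line differed over 2-fold. Among all 100 members, 49 did so in 19G and 13 in 20G. The positions of the newGene loci in the genome were not analysed here.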

How the data were processed

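The deposited values are FPKM per locus, 1 file per library, as the labels name the unit; poly(A) RNA was enriched with oligo(dT) beads and made into PCR-amplified cDNA libraries, per the labels' protocols. No source used here names the aligner, the assembler, the build or a filter. FPKM holds no counts, so absolute depth is unknown and no count test or counting interval is given. A weak step common to the libraries (259 of 13547 ratios of values under 0.1 FPKM, within 0.01 on the log2 scale) gave relative depths that differed by at most 1.13-fold.

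Groups and replicate numbers came from the titles. Loci were fitted with limma 3.58.1 in R 4.3.3 on log2(FPKM + 1), which understates changes of low loci. The fit used a mean-variance trend and two-sided tests. It was tested on simulated data with independent noise, which does not cover a library that stands apart. Tables and figures were made with Python 3.11.15. The members, lists and rules were chosen with earlier results of these data known. Named loci are the 10 of highest mean, the called members, the 5 of smallest SD, the 5 furthest in 19G replicate 1 and the 3 loci on each side of the lowest rank; neighbouring genes, new loci and others said to be so were named after their values were seen. The RefSeq table held all 57126 RefSeq identifiers and was used for symbols and gene order only. The planned product lists, protein families and promoter motifs were not analysed here. Alternatives were other pseudocounts, filters, scalings, weights, a replicate block, libraries left out and other choices of the members.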

Additional observations from a re-analysis of the deposited data

How the results depend on the processing

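Called members numbered 4 with a pseudocount of 10, 4 with quantile normalization, 4 with no mean-variance trend and 11 with limma sample weights, each including the 2 reported, and from 2 to 8 with each library left out (8 without 19G replicate 1). Chosen by median FPKM the 100 loci held 1 called locus, chosen by the mean of log2(FPKM + 1) 0, chosen without a 20G library 1, and with 19G replicate 1 left out of both choice and fit, an alternative added after seeing the data, 6. Over all loci, calls fell to 1251 with a pseudocount of 10 (684 higher, 567 lower, a split of 54.7% higher against 49.2%) and to 1860 with a mean of at least 5 FPKM required, and ranged from 4345 to 5690 with a library left out. Among the 400 loci ranked next, they rose to 52 with sample weights and ranged from 20 to 58 (the highest without 19G replicate 1). Pearson's r of the deviations from the line mean was 0.24, -0.01 and 0.13 between the lines for replicates 1, 2 and 3. Between libraries of different replicate numbers it ran from -0.23 to 0.19, so these values do not settle if the numbers pair the libraries. With the replicate block 3 members were called, 2 of them those reported. Under each scaling the overall median shifted by less than 0.1. The share of summed FPKM was 12.7% in 19G and 14.4% in 20G for 50 loci, and 24.3% and 25.02% for 200.

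The 2 called members kept call and direction in each of 17 alternative fits. LOC110873772 was not called in the main fit, at 1.18 (limma adjusted p = 0.24). It was called at 1.18 with a pseudocount of 10 and with no trend, and at 1.31 with sample weights. In the other alternative fits it was not called, and with quantile normalization its difference fell to 0.23 (limma adjusted p = 0.84). LOC110899837 and newGene_6328 were called at 3.09 and 3.24 with sample weights and at 3.36 and 2.92 without 19G replicate 1. Differences that changed sign were never called. With quantile normalization, which makes the top values of all libraries alike, LOC110891322 stood at -0.23, newGene_20210 at 0.12, LOC110912864 at 0.067, newGene_6327 at 0.12 and LOC110941541 at 0.090. With sample weights newGene_20210 stood at 0.013, LOC110895460 at -0.18, LOC110889450 at 0.060, LOC110872088 at 0.045, LOC110937284 at 0.26 and LOC110930503 at 0.024. With a library left out the ranges were -0.20 to 0.86 for LOC110899840, -0.19 to 0.015 for newGene_20210, -0.45 to 0.21 for LOC110912864, -0.46 to 0.65 for LOC110895460, -0.58 to 0.25 for newGene_6327, -0.54 to 0.20 for LOC110889450, -0.11 to 0.094 for LOC110941541, -0.015 to 0.17 for LOC110911678, -0.71 to 0.52 for LOC110872088, -0.65 to 0.46 for LOC110937284, -0.45 to 0.029 for LOC110868758 and -0.31 to 0.0062 for LOC110930503. The cause was not tested. What absolute depth limits is not known.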
